A study of Mus musculus with 22 samples.

Results

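The BCL2 family decides at the mitochondrion whether a T cell lives or dies, and 10 of its genes were followed in regulatory T cells (Tregs) of mouse visceral fat. They were the survival genes Bcl2, Bcl2l1, Mcl1 and Bcl2a1b, the effector genes Bax and Bak1, and the BH3-only genes Bcl2l11, Bbc3, Pmaip1 and Bid. The 10 were chosen by name from the 55011 genes of the count table, with earlier results of these data known. RNA-seq was made from 22 libraries of 1000 twice-sorted Tregs each, taken from visceral adipose tissue of male mice, all at ZT0 (when the lights come on). The transfer groups held 2 KO and 2 WT libraries, made from mice aged 20 weeks at 9 weeks after adoptive transfer. The lean groups held 3 KO and 3 WT libraries from mice aged 18 weeks. The groups on a high fat diet for 4 weeks were also 18 weeks old, and those on it for 16 weeks were 30 weeks old, their first 14 weeks having been on lean diet, with 3 KO and 3 WT libraries each. KO and WT are the genotypes of Bmal1 (gene symbol Arntl), which encodes a core transcription factor of the circadian clock, the partner of CLOCK. All 22 libraries carry the strain name C57BL/6 Foxp3.Cre-YFP, so WT and KO cells alike have a Cre recombinase with YFP driven by Foxp3, the lineage factor of Tregs. The sources used here give neither the design of the Bmal1 allele, nor the donors and hosts of the transfer, nor whether the libraries of a group came from different mice, so the p-values speak only of the spread between libraries. Length of diet and age cannot be told apart at 16 weeks. In the transfer groups, whose sample names give no diet, transfer, age, host and any difference in diet cannot be told apart.

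Survival proteins of the family keep the outer mitochondrial membrane intact by binding the death proteins. The effectors BAX and BAK form pores in that membrane and release cytochrome c, which starts the caspases. BH3-only proteins are the sensors: BIM (Bcl2l11) acts in lymphocytes deprived of cytokine, PUMA (Bbc3) and NOXA (Pmaip1) are induced by p53 and other stress signals, and BID is cleaved downstream of death receptors. NOXA binds MCL1 and A1, the product of Bcl2a1b. Tregs need interleukin 2, which signals through STAT5, and need MCL1 to persist. In libraries of pooled cells, fewer cells of a type and less RNA per cell cannot be told apart.

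Total counts ran from 4814337 to 5990319 in the 4 transfer libraries and from 1955940 to 3467019 in the 18 diet libraries. Levels are given as CPM, counts scaled to a common library size after TMM normalization over all 22 libraries. A floor of 3 counts, the limit that a count of 0 allows, was 0.554 to 0.679 CPM in transfer and 0.855 to 1.56 CPM in diet libraries, and covers counting error only. All 10 genes passed the filter on low counts in every test, and none was at 0 in any library. Bak1 (3 to 57 counts), Bbc3 (6 to 55 counts) and Bcl2l11 (15 to 113 counts) were the shallowest. Nr1d1, the REV-ERB alpha gene and a direct target of BMAL1, had group means of 1.16 to 2.71 CPM in KO and 22.1 to 90.3 CPM in WT. Arntl had 83.2 to 99.02 CPM in KO and 68.3 to 92.6 CPM in WT, but counts over the whole gene do not check the loss of part of it. The 7 Treg markers summed to 4352 to 6863 CPM in every library. Lists for other cells were lower: the sums were 0 to 2.36 CPM for neutrophils, 4.06 to 30.3 for B cells, 3.67 to 16.6 for macrophages, 0.309 to 5.86 for red blood cells, 30.6 to 174 for dendritic cells and class II genes, 46.2 to 139 for mesothelium and epithelium, 38.3 to 193 for endothelium, 3.97 to 175 for mast cells and eosinophils, and 47.2 to 699 CPM for cytotoxic T and NK cells. Stromal markers summed to 1.17 to 114 CPM and adipocyte markers to 0 to 52.03 CPM, both highest in KO library 1 at 16 weeks. Single genes carried some of these sums. Kit reached 174.5 CPM in the mast cell list and Epcam 135.7 CPM in the mesothelial list, and the other 5 markers of each stayed under 5 CPM. Nkg7 reached 633 CPM in the cytotoxic list, where Cd8a, Ncr1 and Klrb1c stayed under 5 CPM. Pecam1 reached 159 CPM in the endothelial list. Fabp4 reached 52.03 CPM in the adipocyte list, where the other 4 markers stayed under 5 CPM.

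Positions on GRCm38 (mm10, GENCODE M21) show which counts could be shared with a neighbour or a copy. Bcl2l1 (chr2:152780668-152831728, minus strand), Mcl1 (chr3:95658788-95663176, plus), Bcl2l11 (chr2:128126038-128162547, plus), Bbc3 (chr7:16308393-16318205, plus) and Pmaip1 share no exon base with another annotated gene. On the opposite strand, Bcl2 (chr1:106538178-106714274, minus) shares 6.09% of its exon bases with D630008O14Rik, Bid (chr6:120891930-120916853, minus) 17.7% with Bcl2l13 and Bak1 (chr17:27019810-27029009, minus) 25.5% with Ggnbp1. Bax (chr7:45461697-45466898, minus) shares 12.2% with the predicted gene Gm45808 on its own strand. Bcl2a1b (chr9:89199209-89207827, plus) shares the most, 49.1% with the predicted gene Gm29094 on its own strand. Values of these 5 genes, their levels per kb included, carry that uncertainty. Bcl2a1b also belongs to a set of near-identical mouse copies, and 84.5% of its windows of 38 bases also occur in other genes. Its coding sequence differs from that of Bcl2a1d (chr9:88723285-88731914, minus) at 6 of 516 bases. The first 60 coding bases of both are shown because so few bases tell the copies apart, with the differing bases in capitals.
Bcl2a1b: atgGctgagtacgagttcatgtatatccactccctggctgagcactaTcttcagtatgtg
Bcl2a1d: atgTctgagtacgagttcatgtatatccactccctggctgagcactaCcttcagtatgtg
Bcl2a1b is therefore uncertain as to copy as well. Bcl2a1d had group means of 44.8 CPM in transferred KO and 61.0 CPM in transferred WT, and of 30.4 to 40.8 CPM on the diets, while Bcl2a1a averaged at most 0.481 CPM in any group.

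BMAL1 binds the E-box CACGTG, which reads the same on both strands, and promoters of the family were searched for it in RefSeq windows of 300 bases at each start site (GRCm38.p6). Of the 10 genes 9 had an entry, with 14 windows in all. Pmaip1 had none, so its promoter was not searched. CACGTG was in 1 window of Bax and 1 of Bbc3, and in 7.15% of all 32851 mouse windows. The Bax window (chr7:45466849-45467148, minus strand) holds it at 2 places, whose first bases lie 9 bases before and 36 bases after the start site, and 0.594% of all windows hold 2 or more. The Bbc3 window (chr7:16310181-16310480, plus strand) holds it once, 64 bases before the start site. Both are printed because they were the only 2 of the 14 windows that hold CACGTG, which is in capitals.
Bax: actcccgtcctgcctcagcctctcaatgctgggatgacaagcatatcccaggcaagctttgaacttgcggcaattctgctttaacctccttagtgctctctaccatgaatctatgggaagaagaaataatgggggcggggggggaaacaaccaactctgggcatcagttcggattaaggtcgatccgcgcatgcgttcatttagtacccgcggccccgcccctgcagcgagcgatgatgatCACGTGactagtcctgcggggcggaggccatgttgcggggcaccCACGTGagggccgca
Bbc3: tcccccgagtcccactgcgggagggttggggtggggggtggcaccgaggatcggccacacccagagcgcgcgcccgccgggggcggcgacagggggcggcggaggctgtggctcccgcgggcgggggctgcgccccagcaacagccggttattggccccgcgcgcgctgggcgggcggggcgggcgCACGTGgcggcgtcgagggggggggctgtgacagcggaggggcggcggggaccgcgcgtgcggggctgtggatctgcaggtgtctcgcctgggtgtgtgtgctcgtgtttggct
The REV-ERB and ROR core TAGGTCA (2.61% of all windows), the AP-1 site TGACTCA (5.2%) and the STAT site TTCNNNGAA (8.3%), each searched on both strands, were in none of the 14 windows. The last pair of motifs was added after the values had been seen. A match describes letters in a window and is no evidence of binding.

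Per kilobase of exon, the scale on which genes can be compared, Bcl2l1 (BCL-XL) had the highest mean level of the 10 in 6 of the 8 groups. It stood at 130.2 ± 4.63 CPM per kb in transferred KO and 125 ± 0.745 in transferred WT cells (SD, n = 2 each), and at 88.6 ± 10.1 in lean KO and 83.2 ± 6.03 CPM per kb in lean WT cells (SD, n = 3 each). At 16 weeks it no longer led. Bcl2a1b (50.8 ± 0.613 CPM per kb) and Bcl2l1 (50.6 ± 4.63 CPM per kb) were level in 16-week KO, and Bax (65.6 ± 3.28 CPM per kb) and Bcl2l1 (62.9 ± 16.8 CPM per kb) in 16-week WT cells (SD, n = 3 each). Mcl1 kept to group means of 22.2 to 31.7 CPM per kb. Bcl2, the founding gene of the family, was low, with group means of 1.87 to 9.05 CPM per kb. These levels rest on annotated exon lengths, which need not be the transcripts made in these cells. Bcl2a1b was ranked without its near-identical copy Bcl2a1d, so the rank of A1 over all its copies is not given by this order.

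**Figure D1:**
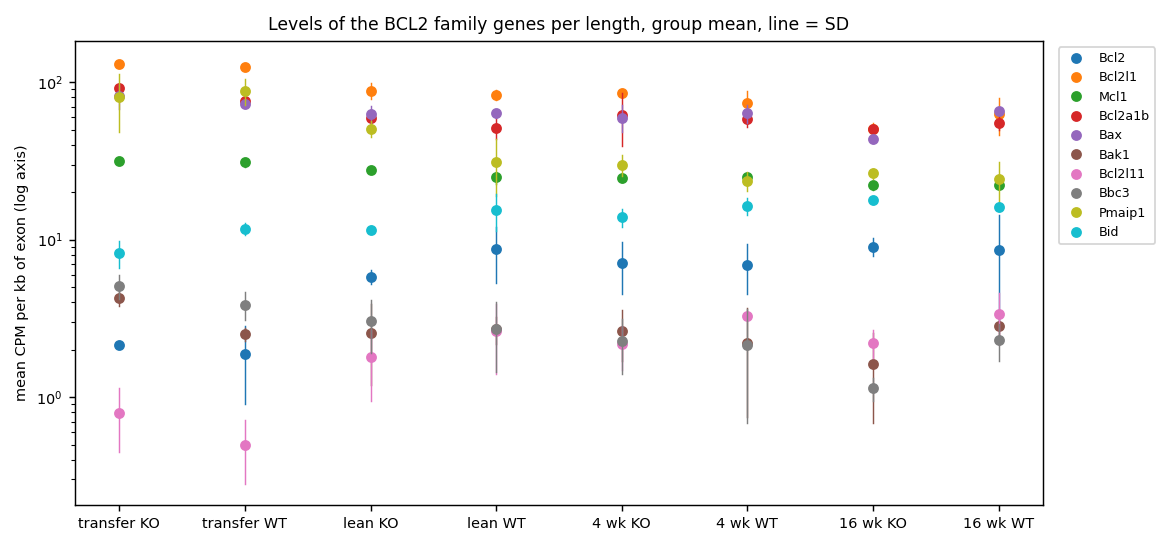
Mean CPM per kb of exon (log axis) of the 10 genes in each group, with the SD over libraries (n = 2 in transfer groups, n = 3 in diet groups). Bcl2l1 leads in the transfer, lean and 4-week groups and is level with Bcl2a1b in 16-week KO and with Bax in 16-week WT. Bcl2 and Bcl2l11 are low in the transfer groups.

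Across the 8 groups 7 of the 10 genes differed, against 17% of 12523 genes tested (edgeR quasi-likelihood test, adjusted p under 0.05). They were Pmaip1 (adjusted p = 9.32e-06), Bcl2l1 (4.1e-05), Bcl2l11 (0.000976), Bcl2 (0.00195), Bid (0.00273), Bax (0.0172) and Mcl1 (0.0427). Within the 6 diet groups Bcl2l1 (adjusted p = 0.0285) and Pmaip1 (0.0306) passed, against 2.86% of 11698 genes. That last count was 0 without lean KO library 1 or 3, or without any 1 of the 3 KO libraries at 16 weeks. The levels follow by role.

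Bcl2l1 had 612 and 582 CPM in transferred KO and 577 and 573 CPM in transferred WT libraries. It had 427, 354 and 439 CPM in lean KO and 409, 353 and 383 CPM in lean WT, 419, 387 and 372 CPM in 4-week KO and 412, 305 and 291 CPM in 4-week WT, and 219, 256 and 219.8 CPM in 16-week KO and 211, 365 and 289 CPM in 16-week WT libraries. Every transfer library was above every diet library, and the 3 KO libraries at 16 weeks were below every lean and 4-week library. WT library 2 at 16 weeks sat within the lean range. Bcl2, which encodes the survival protein that resting T cells rely on, had 18.98 and 20.4 CPM in transferred KO and 23.3 and 10.9 CPM in transferred WT libraries, all below every diet library. Its diet values were 58.3, 47.2 and 54.5 CPM in lean KO and 44.04, 98.02 and 96.6 CPM in lean WT, 39.96, 68.6 and 85.9 CPM in 4-week KO and 82.5, 38.9 and 68.9 CPM in 4-week WT, and 71.02, 84.8 and 92.7 CPM in 16-week KO and 139, 51.4 and 47.5 CPM in 16-week WT. The KO and WT ranges of Bcl2 overlapped on every diet. Mcl1, whose protein turns over fast, varied least, 1.43-fold between its highest and lowest group means. Its values were 108 and 109 CPM in transferred KO and 101 and 110.1 CPM in transferred WT, 97.5, 91.2 and 93.7 CPM in lean KO and 79.8, 81.8 and 93.3 CPM in lean WT, 80.3, 88.8 and 83.8 CPM in 4-week KO and 82.9, 85.6 and 89.1 CPM in 4-week WT, and 75.6, 70.9 and 80.8 CPM in 16-week KO and 77.5, 79.8 and 71.7 CPM in 16-week WT. The 4 transfer libraries were above all diet libraries. Bcl2a1b, the NF-kB-induced A1 gene, had 72.8 and 78.3 CPM in transferred KO and 60.7 and 64.1 CPM in transferred WT, 41.03, 49.2 and 54.04 CPM in lean KO and 47.2, 34.9 and 43.9 CPM in lean WT, 72.2, 42.3 and 37.96 CPM in 4-week KO and 52.2, 42.8 and 47.2 CPM in 4-week WT, and 41.8, 41.7 and 40.9 CPM in 16-week KO and 41.03, 49.8 and 45.1 CPM in 16-week WT. KO library 1 at 4 weeks was the 1 diet library within the transfer range.

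Bax had 113 and 144 CPM in transferred KO and 119.6 and 111 CPM in transferred WT libraries. It had 108, 105 and 84.7 CPM in lean KO and 94.95, 106 and 98.4 CPM in lean WT, 109.6, 73.8 and 98.5 CPM in 4-week KO and 97.6, 113 and 88.6 CPM in 4-week WT, and 68.9, 64.9 and 71.2 CPM in 16-week KO and 109, 101 and 99.3 CPM in 16-week WT. The 3 KO values at 16 weeks were the lowest of all 22 libraries, and KO and WT overlapped on the other diets. Bak1, the partner effector, was low throughout at 1.45 to 10.97 CPM, and 6 of the 7 neighbouring pairs in the order of its group means overlapped.

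Pmaip1 had 158 and 282 CPM in transferred KO and 209 and 272 CPM in transferred WT libraries. It had 157, 126 and 132 CPM in lean KO and 123, 57.3 and 75.6 CPM in lean WT, 78.5, 71.5 and 95.3 CPM in 4-week KO and 63.2, 56.8 and 73.7 CPM in 4-week WT, and 78.05, 69.1 and 69.01 CPM in 16-week KO and 71.2, 45.5 and 82.5 CPM in 16-week WT. Lean KO was above lean WT without overlap, and lean KO library 1 nearly reached the lowest transfer library. Bcl2l11, the BIM gene, had 8.39 and 4.43 CPM in transferred KO and 5.21 and 2.77 CPM in transferred WT, all below every diet library. It had 10.6, 10.4 and 22.5 CPM in lean KO and 15.1, 15.8 and 32.7 CPM in lean WT, 21.3, 11.2 and 19.7 CPM in 4-week KO and 26.1, 25.3 and 26.97 CPM in 4-week WT, and 15.1, 21.8 and 16.3 CPM in 16-week KO and 19.4, 23.8 and 38.04 CPM in 16-week WT. The KO mean was the lower one on each diet, with ranges apart at 4 weeks, where those of 9.91% of all genes were. Bid had 33.1 and 25.2 CPM in transferred KO and 39.2 and 44.3 CPM in transferred WT, 43.2, 40.4 and 38.7 CPM in lean KO and 57.8, 67.7 and 39.2 CPM in lean WT, 54.6, 50.99 and 41.9 CPM in 4-week KO and 66.2, 56.5 and 51.5 CPM in 4-week WT, and 59.1, 64.6 and 65.8 CPM in 16-week KO and 54.1, 57.2 and 61.3 CPM in 16-week WT. Its 16-week KO libraries were above all lean KO libraries. Bbc3, the PUMA gene, ran from 2.11 to 12.1 CPM, with group means of 10.8 ± 1.91 CPM in transferred KO (SD, n = 2) and 2.41 ± 0.407 CPM in 16-week KO (SD, n = 3) as its extremes.

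**Figure D2:**
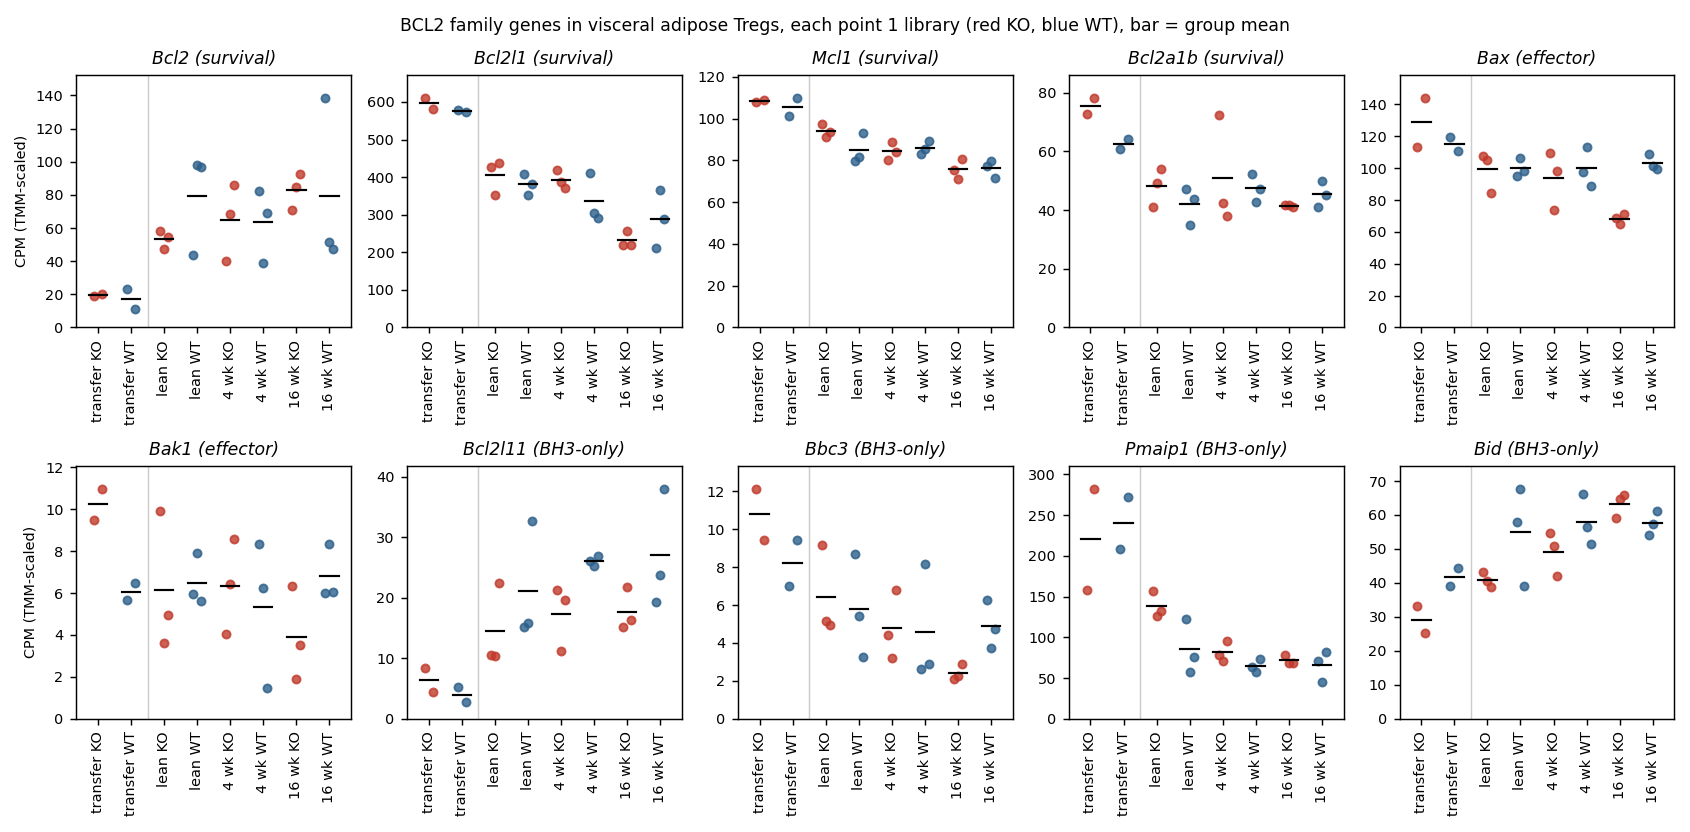
CPM of the 10 genes in each of the 22 libraries, by group, KO in red and WT in blue. Bcl2 and Bcl2l11 are lowest and Bcl2l1 and Pmaip1 highest in the transfer groups, and Bax is lowest in 16-week KO at 64.9 to 71.2 CPM.

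The comparison of KO with WT asks what loss of BMAL1 does to the family, and none of the 10 genes passed on any diet, in the average over diets or after transfer. The share of all genes that passed was 0.0427% in lean mice, 0.0684% at 4 weeks, 0.0427% at 16 weeks and 0.18% averaged over the diets, of 11698 genes, and 0.171% of 11715 genes after transfer (edgeR). At an unadjusted p under 0.05 the members numbered 2 on lean diet (with 7.17% of all genes), 0 at 4 weeks (4.62%), 1 at 16 weeks (9.15%), 3 in the average (7.39%) and 0 after transfer (6.53%), and DESeq2 called 0 members in each. The members' median log2 fold change was 0.18 after transfer, 0.04 on lean diet, 0.04 at 4 weeks and -0.21 at 16 weeks, and that of all genes was 0.00 in each. A p that misses the threshold does not show equal levels, so sizes with SE or intervals are given for the members named below. After transfer the log2 fold changes of the 10 ran from -0.53 to 0.74, from 2 libraries a genotype.

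Bax at 16 weeks had the smallest p. It averaged 68.4 ± 3.19 CPM in 16-week KO libraries, against 103 ± 5.17 CPM in 16-week WT libraries (SD, n = 3 each). Its log2 fold change was -0.58 ± 0.14 (SE), 1.49-fold lower in KO, with an unadjusted p of 0.000677 and an adjusted p of 0.201 by edgeR, and of 0.0612 by DESeq2. Over all alternatives the adjusted p ran from 0.0612 to 0.566. Bax and Bbc3 were the 2 members with ranges apart there, against 14% of all genes. On lean diet Bax averaged 99.2 ± 12.7 CPM in KO and 99.9 ± 5.82 CPM in WT (SD, n = 3 each), and its log2 fold change of -0.01 had a 2 SE interval of -0.30 to 0.28. The test of that difference between diets, the genotype by diet interaction, gave -0.57 ± 0.20 with an adjusted p of 0.432 (edgeR). Bbc3 had 2.11, 2.25 and 2.88 CPM in 16-week KO and 6.27, 3.71 and 4.71 CPM in 16-week WT libraries. It averaged 2.41 ± 0.407 CPM in 16-week KO and 4.90 ± 1.29 CPM in 16-week WT (SD, n = 3 each), a log2 fold change of -0.99 ± 0.54 with an adjusted p of 0.634 (edgeR). Beside these, stromal markers summed to 3.38 to 114 CPM in 16-week KO and 4.27 to 11.1 CPM in 16-week WT, and adipocyte markers to 9.90 to 52.03 CPM in KO and 2.02 to 7.98 CPM in WT. The highest adipocyte sum was Fabp4 alone, and Adipoq, Plin1, Cfd and Lep stayed under 5 CPM in every library. The list for cytotoxic T and NK cells summed to 129 to 150.2 CPM in 16-week KO and 174 to 699 CPM in 16-week WT, without overlap. Their part in the result was not tested.

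Pmaip1 on lean diet averaged 138 ± 16.6 CPM in KO and 85.3 ± 33.9 CPM in WT (SD, n = 3 each), a log2 fold change of 0.70 ± 0.23 with an adjusted p of 0.483 (edgeR). It was the 1 member with ranges apart there, against 13.1% of all genes. The average over diets was 0.39 ± 0.13 with an adjusted p of 0.459 (edgeR). With no filter on low counts it passed in both, with an adjusted p of 0.0459 on lean diet and 0.0453 in the average. Over all alternatives the adjusted p reached 0.92 and 0.675. Immediate early genes are induced by cell handling and receptor signals. The list of 18, called immediate early genes for short, also holds the heat shock genes Hspa1a, Hspa1b and Dnajb1. The 18 summed to 30138 to 33025 CPM in lean KO and 15852 to 26546 CPM in lean WT. All 18 had a positive log2 fold change on lean diet, with a median of 0.60, and none passed. At 16 weeks none of the 18 was positive, the median was -0.52 and none passed. Their part in the Pmaip1 difference was not tested.

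Bcl2l11 had log2 fold changes of KO minus WT of -0.54 ± 0.37 on lean diet, -0.59 ± 0.35 at 4 weeks and -0.60 ± 0.35 at 16 weeks (± SE). The average of -0.58 ± 0.21 had an unadjusted p of 0.0112 and an adjusted p of 0.465 (edgeR, 9 against 9 libraries). After transfer its log2 fold change was 0.68 ± 0.73, from 2 libraries a genotype. Bcl2, its binding partner, had log2 fold changes of 0.20 ± 0.42 after transfer, -0.57 ± 0.37 on lean diet, 0.03 ± 0.37 at 4 weeks and 0.09 ± 0.35 at 16 weeks. Bid on lean diet, the other member beside Pmaip1 with an unadjusted p under 0.05 there, had -0.43 ± 0.18 (adjusted p = 0.627, edgeR). Averaged over diets, Bax had -0.23 ± 0.08 (adjusted p = 0.484, edgeR). The narrowest interval of the average was that of Mcl1, -0.10 to 0.18 around 0.04. The 2 SE interval of the average was -0.19 to 0.19 for Bcl2l1, -0.18 to 0.30 for Bcl2a1b, -0.38 to 0.03 for Bid and -0.83 to 0.43 for Bak1.

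**Figure D3:**
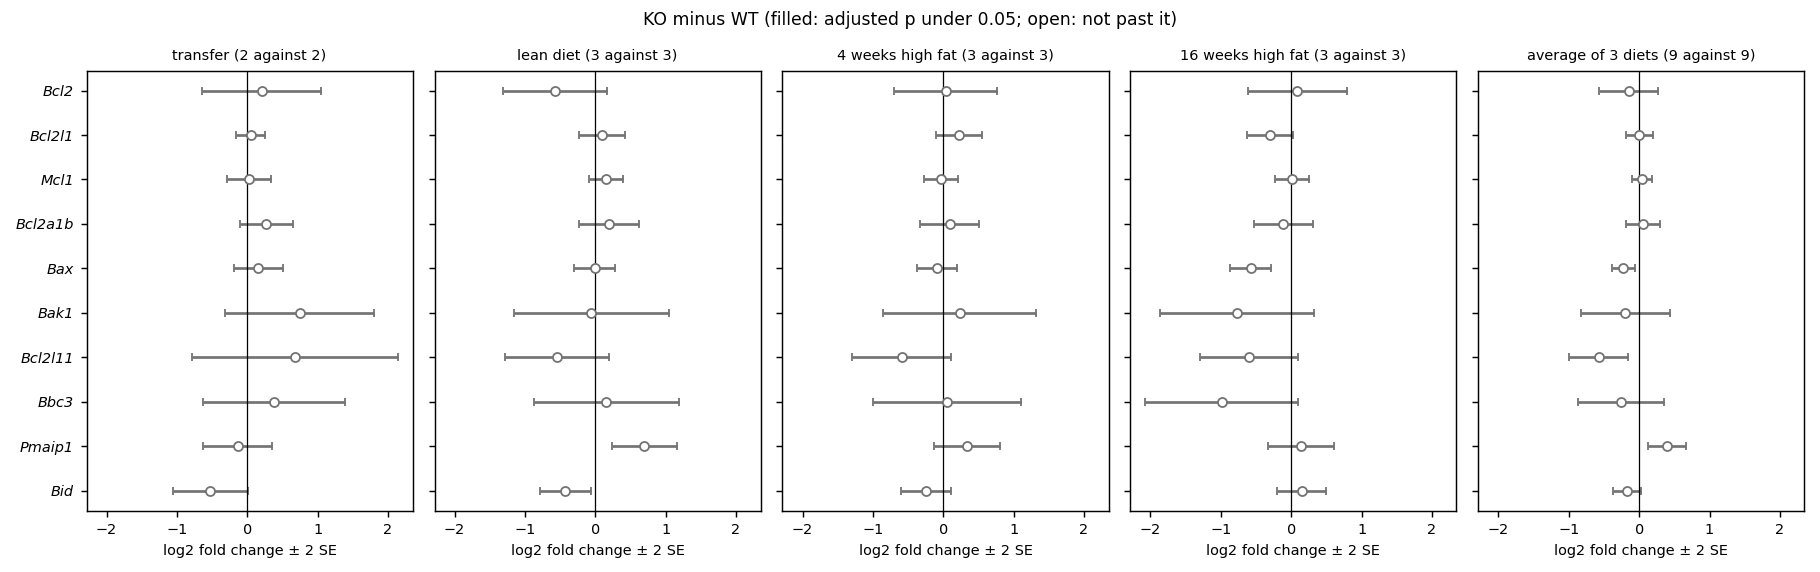
Log2 fold change of KO minus WT for the 10 genes after transfer, on each diet and averaged over the diets, with 2 SE on each side. No gene had an adjusted p under 0.05, and Bax at 16 weeks (-0.58) and Pmaip1 on lean diet (0.70) had the smallest unadjusted p within a diet.

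Of the other genes of the pathway 86 were tested in 7 lists, and none passed in KO against WT on any diet or in the average. The lists held 9 tested genes of the rest of the family, 14 of the caspases and apoptosome, 6 inhibitors of apoptosis, 10 death receptor genes, 20 regulators of the family, 9 p53 targets and the 18 immediate early genes. After transfer 1 passed: Btg2, an antiproliferative immediate early gene, had 1954 ± 416 CPM in KO and 5018 ± 549 CPM in WT (SD, n = 2 each), a log2 fold change of -1.37 ± 0.14 with an adjusted p of 0.00462 (edgeR).

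After 16 weeks of high fat diet 2 of the 10 genes were lower than on lean diet, averaged over genotypes, where 3.72% of all genes fell and 2.92% rose. Bcl2l1 fell, with a log2 fold change of -0.62 ± 0.12 (1.53-fold lower, adjusted p = 0.0025) and so did Pmaip1, with -0.66 ± 0.16 (1.58-fold lower, adjusted p = 0.0175, edgeR). Bcl2l1, first of the 10 per kb on lean diet, and the most abundant of the 4 BH3-only genes were thus both lower. Mcl1 had -0.24 ± 0.09 (adjusted p = 0.098), Bax -0.25 ± 0.10 (0.154), Bbc3 -0.83 ± 0.38 (0.214) and Bid 0.34 ± 0.13 (0.118), and the other 4 had an unadjusted p above 0.05. The members' median was -0.25, and that of all genes 0.00. Bcl2l1 passed in each of the 18 fits that left out a library. The Pmaip1 call was lost without lean WT library 1 (adjusted p = 0.0731) or lean KO library 1 (0.0501), and its adjusted p ran from 5.18e-05 to 0.0731 over all alternatives.

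In KO cells 4 of the 10 passed at 16 weeks against lean diet, where 3.59% of all genes fell and 2.36% rose. Bcl2l1 (-0.81 ± 0.16, 1.76-fold lower, adjusted p = 0.00509), Pmaip1 (-0.94 ± 0.23, 1.92-fold lower, adjusted p = 0.0176) and Bax (-0.54 ± 0.15, 1.45-fold lower, adjusted p = 0.0314) fell, and Bid rose (0.63 ± 0.18, 1.55-fold, adjusted p = 0.041, edgeR). For these 4 and for Bcl2, Mcl1 and Bbc3 the 16-week and lean KO libraries did not overlap, 7 of 10 against 25% of all genes. Single libraries decided 3 of the 4 calls, and the count was 1 without KO library 2 or 3 at 16 weeks or lean KO library 1, and 2 without KO library 1 at 16 weeks or lean KO library 2. Bax and Bid both lost their call without any 1 of the 3 KO libraries at 16 weeks, with adjusted p of up to 0.121 for Bax and 0.112 for Bid over all alternatives. Bcl2l1 passed in every fit that left out a library.

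In WT cells 0 of the 10 passed at 16 weeks against lean diet, where 0.0855% of all genes did (edgeR). At an unadjusted p under 0.05 there was 1 member, Bcl2l1, with 8.76% of all genes, and DESeq2 called 0 members. Bcl2l1 had -0.42 ± 0.16 (adjusted p = 0.436), Pmaip1 -0.38 ± 0.23, Bax 0.03 ± 0.14 and Bid 0.05 ± 0.18. The genotypes were not shown to differ, since 0 members passed the genotype by diet interaction, where 0% of all genes did (edgeR). At an unadjusted p under 0.05 there were 2 members, Bax and Bid, with 8.49% of all genes, and DESeq2 called 0 members. The interaction was 0.58 ± 0.25 for Bid (adjusted p = 0.536), -0.39 ± 0.23 for Bcl2l1 (0.658) and -0.56 ± 0.33 for Pmaip1 (0.658). The comparison of KO with WT at 16 weeks shares its KO libraries with the comparison of 16 weeks with lean diet in KO.

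At 4 weeks 0 members passed against lean diet in the average and in each genotype, where 0% of all genes passed in each of the 3 (edgeR; 0 members by DESeq2). Pmaip1 was the 1 member with an unadjusted p under 0.05, at -0.60 ± 0.16 in the average (adjusted p = 0.255) and -0.78 ± 0.23 in KO (0.481), and none had one in WT. The share of all genes with one was 8.04% in the average, 7.15% in KO and 5.59% in WT. Bcl2l1 had -0.13 ± 0.12 in the average. From 4 to 16 weeks Bcl2l1 was the 1 member that fell, with -0.48 ± 0.12 in the average (adjusted p = 0.0312, with 1.53% of all genes lower) and -0.75 ± 0.16 in KO (adjusted p = 0.0218, with 1.25% lower). These calls were lost without 7 and without 4 single libraries of 18, with adjusted p of up to 0.092 and 0.127. In WT 0 passed, where 0% of all genes did (edgeR; 0 members at an unadjusted p under 0.05, with 7.56% of all genes; 0 by DESeq2), and Bcl2l1 had -0.22 ± 0.16.

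Pathway genes moved in both directions at 16 weeks against lean diet, averaged over genotypes, where 2.92% of all genes rose and 3.72% fell. With lists this short, counts of 1 or 2 called genes are descriptions. Of 10 death receptor genes 2 rose, Fas (45.5 ± 10.5 CPM at 16 weeks and 20.8 ± 4.57 CPM on lean diet, SD, n = 6 each; log2 fold change 1.13 ± 0.18) and Tnfrsf1b, the TNF receptor 2 of Tregs (0.51 ± 0.10). Birc2 rose (0.48 ± 0.12), 1 of 6 inhibitors of apoptosis. Of 9 p53 targets Cdkn1a (-0.92 ± 0.14) and Sesn1 (-0.39 ± 0.10) fell. Of 20 regulators 3 rose, the costimulatory receptor Icos (0.72 ± 0.11), the NF-kB subunit Rel (0.63 ± 0.16) and Stat5b (0.58 ± 0.15). Another 5 fell: Il2ra, the high-affinity interleukin 2 receptor chain (364 ± 66.96 CPM at 16 weeks and 669 ± 186 CPM on lean diet, SD, n = 6 each; -0.86 ± 0.13), Nfkb1 (-0.60 ± 0.11), Atf4 (-0.32 ± 0.08), Foxo3, whose product can induce Bcl2l11 (-0.51 ± 0.14), and Myc (-0.45 ± 0.12). None of the 9 other family genes passed.

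Immediate early genes and adipose Treg markers are given beside these changes. Of the 18 immediate early and handling genes 13 fell and 1, Egr2, rose at 16 weeks, with a median log2 fold change of -1.04. Over all genes 3.72% fell and 2.92% rose. In the list Fosb (-1.88 ± 0.16), Egr1 (-1.83 ± 0.19) and Fos (-1.47 ± 0.16) had the smallest p. Their sum was 12115 to 14609 CPM in 16-week KO and 16311 to 18212 CPM in 16-week WT, against 30138 to 33025 CPM in lean KO and 15852 to 26546 CPM in lean WT. The 6 adipose Treg markers (Pparg, Il1rl1, Gata3, Klrg1, Ccr2 and Areg) summed to 2160.0 to 2877 CPM in 16-week KO and 2635 to 5627 CPM in 16-week WT, against 5823 to 6049.5 CPM in lean KO and 3237 to 6121 CPM in lean WT. Endothelial markers summed to 118 to 193 CPM in 16-week KO and 49.5 to 162 CPM in 16-week WT, against 38.4 to 77.3 CPM in lean KO and 60.6 to 74.3 CPM in lean WT. Class II and dendritic cell markers summed to 108 to 174 CPM in 16-week KO and 62.8 to 128 CPM in 16-week WT, against 49.8 to 138 CPM in lean KO and 67.4 to 94.7 CPM in lean WT. The list for cytotoxic T and NK cells summed to 129 to 150.2 CPM in 16-week KO and 174 to 699 CPM in 16-week WT, against 177 to 317 CPM in lean KO and 157 to 389 CPM in lean WT. Mast cell and eosinophil markers summed to 7.03 to 15.02 CPM in 16-week KO and 7.69 to 175 CPM in 16-week WT, against 4.95 to 18.7 CPM in lean KO and 6.23 to 16.3 CPM in lean WT. The highest sums of these 4 lists over all 22 libraries were in 16-week libraries, in KO library 1 for the endothelial and class II lists, WT library 3 for the cytotoxic list and WT library 2 for the mast cell list. That mast cell sum was nearly all Kit, which reached at most 174.5 CPM. Across the 18 diet libraries 4 members had r above 0.7 or below -0.7 with the immediate early sum. That sum weighs genes by their level, and over all 22 libraries Junb ran from 4526 to 11662 CPM and Dusp1 from 3104 to 10337 CPM. Low genes of the list such as Egr2 (16.1 to 92.5 CPM) hardly enter it. Pearson r was 0.78 for Bcl2l1 (Spearman rho = 0.81), 0.75 for Pmaip1 (0.70), 0.71 for Mcl1 (0.69) and -0.72 for Bid (-0.72), and between -0.48 and 0.56 for the other 6. Within groups r was 0.38 for Bcl2l1, 0.59 for Pmaip1, -0.12 for Mcl1 and -0.14 for Bid. With the adipose Treg sum, r was 0.88 for Bcl2l1 (rho = 0.83, r = 0.68 within groups) and -0.61 for Bcl2 (rho = -0.67, r = -0.62 within groups), and between -0.54 and 0.59 for the other 8. Without the 2 libraries farthest from the median of the immediate early sum, r with that sum was 0.71 for Bcl2l1, 0.78 for Pmaip1, 0.61 for Mcl1 and -0.72 for Bid. Without the 2 farthest from the median of the adipose Treg sum, it was 0.81 for Bcl2l1 and -0.58 for Bcl2. These describe 18 libraries that share groups and depth, and neither list is tied to a single member. The part of these lists in the changes of the members was not tested.

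**Figure D4:**
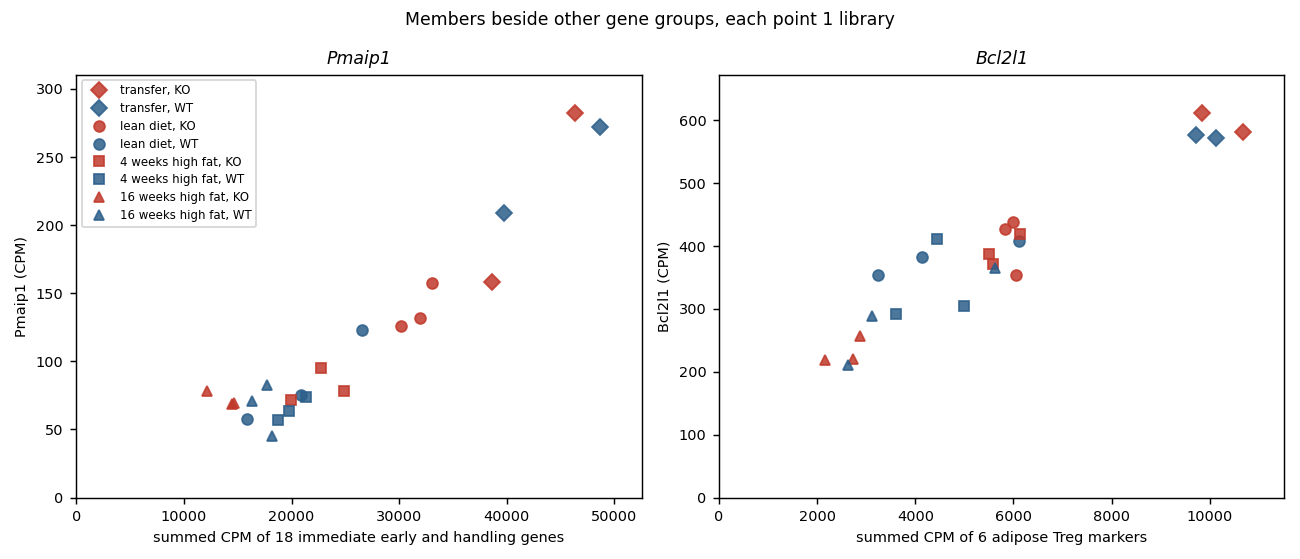
Left, Pmaip1 (CPM) against the summed CPM of 18 immediate early and handling genes, and right, Bcl2l1 (CPM) against the summed CPM of 6 adipose Treg markers, 1 point a library, with shapes for transfer and diets, KO in red and WT in blue. The 4 transfer libraries lie at the right of both panels and the 3 KO libraries at 16 weeks toward the lower left. The transfer libraries are also uppermost, but the lower of the 2 transferred KO libraries is at mid-height for Pmaip1 (158 CPM), level with a lean KO library.

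Averaged over genotypes, 6 of the 10 genes passed in transfer against lean diet: 3 rose, where 7.35% of 12523 genes did, and 3 fell, where 8.81% did. Pmaip1 (1.03 ± 0.19, 2.04-fold, adjusted p = 0.000541), Bcl2l1 (0.52 ± 0.12, 1.43-fold, adjusted p = 0.00408) and Bcl2a1b (0.56 ± 0.15, 1.47-fold, adjusted p = 0.0143) rose. Bcl2 (-1.89 ± 0.32, 3.70-fold lower, adjusted p = 0.000256), Bcl2l11 (-1.85 ± 0.33, 3.61-fold lower, adjusted p = 0.000439) and Bid (-0.50 ± 0.14, 1.41-fold lower, adjusted p = 0.0193, edgeR) fell. Survival genes and BH3-only genes thus stood on both sides. Mcl1 (0.20 ± 0.09, adjusted p = 0.13), Bax (0.24 ± 0.11, 0.163), Bbc3 (0.56 ± 0.36, 0.314) and Bak1 (0.25 ± 0.39, 0.717) did not pass. The Bid call was lost without lean WT library 2 (adjusted p = 0.0633), transferred WT library 1 (0.0783) or transferred KO library 2 (0.12), within a range of 0.0043 to 0.156 over all alternatives. The Bcl2a1b call was lost without transferred KO library 2 (0.0545, range 0.0035 to 0.0545). With the Bcl2a1 copies summed, its log2 fold change was 0.57 (adjusted p = 0.00839).

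Within WT 4 of the 10 passed, where 10.5% of all genes did. Pmaip1 (1.44 ± 0.26, 2.71-fold, adjusted p = 0.00138) and Bcl2l1 (0.53 ± 0.17, 1.45-fold, 0.0449) rose, and Bcl2l11 (-2.47 ± 0.47, 5.55-fold lower, 0.00196) and Bcl2 (-2.29 ± 0.45, 4.88-fold lower, 0.00252, edgeR) fell. Without transferred WT library 2, which had the lower Bcl2 and Bcl2l11 values of its pair, 1 member passed. The Bcl2l1 call was lost in 12 of 22 fits that left out a library, with an adjusted p of up to 0.162, and with the replicate number as a block (0.0726), within a range of 0.00197 to 0.162. Within KO 0 passed, where 3.35% of all genes did (edgeR). At an unadjusted p under 0.05 there were 6 members, with 17% of all genes, and DESeq2 called 1, Bcl2, with 5.11% of all genes. The KO values were -1.49 ± 0.44 for Bcl2 (adjusted p = 0.0655), -1.23 ± 0.45 for Bcl2l11 (0.145), 0.62 ± 0.26 for Pmaip1 (0.218) and 0.50 ± 0.17 for Bcl2l1 (0.106). The genotypes were not shown to differ in this: 0 members passed the genotype by transfer interaction, where 0.0319% of all genes did (edgeR). At an unadjusted p under 0.05 there was 1 member, Pmaip1, with 7.31% of all genes, and DESeq2 called 0 members. Pmaip1 had -0.82 ± 0.38 there (adjusted p = 0.674) and Bcl2l11 1.24 ± 0.64 (0.701).

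**Figure D5:**
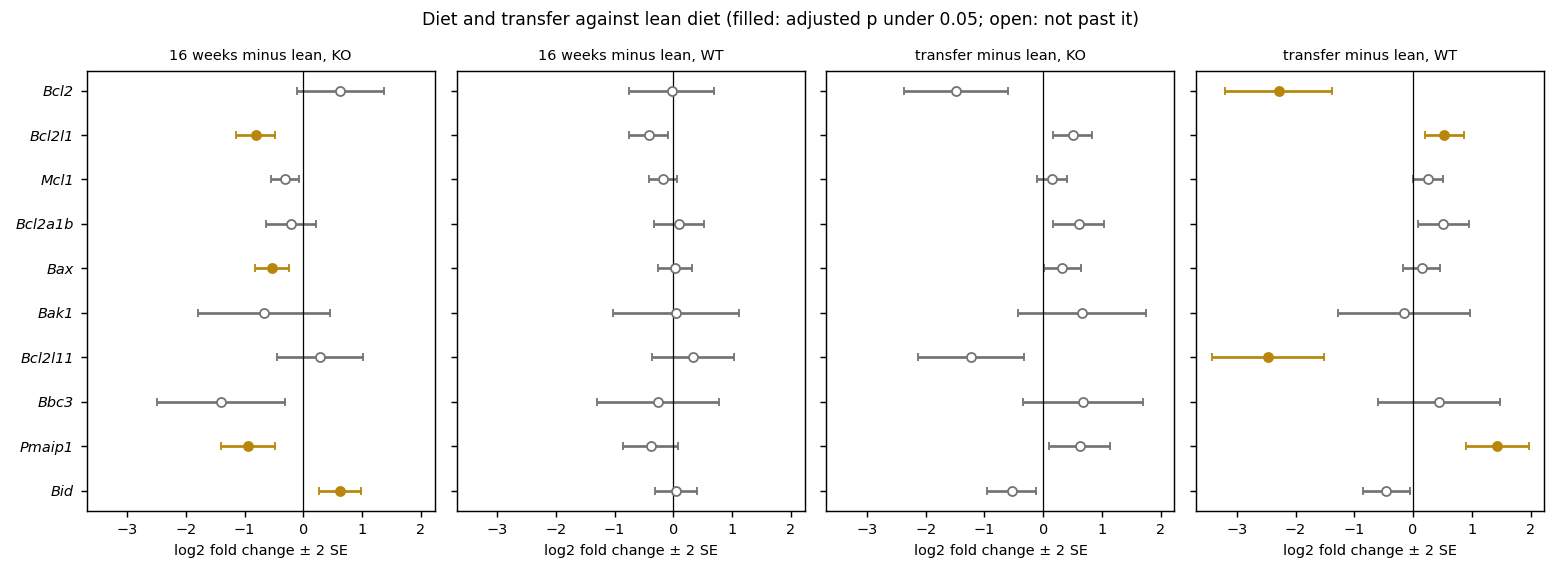
Log2 fold change of the 10 genes, with 2 SE on each side, for 16 weeks of high fat diet minus lean diet and for transfer minus lean diet, in KO and in WT. The estimates for Bcl2l1 and Pmaip1 lie below 0 for 16 weeks and above 0 for transfer, and Bcl2 (-2.29) and Bcl2l11 (-2.47) lie lowest for transfer in WT. No gene had an adjusted p under 0.05 (edgeR) for 16 weeks in WT or for transfer in KO.

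Within a library, the ratio of Bcl2 to Bcl2l11 overlapped between transfer and lean libraries, while that of Mcl1 to Bcl2l11 did not. The latter follows from the levels above and adds no separate result. Every transfer library was above every diet library for Mcl1 and below every diet library for Bcl2l11. The log2 ratio of Bcl2 to Bcl2l11 in CPM was 1.69 ± 0.73 in transferred KO and 2.07 ± 0.13 in transferred WT (SD, n = 2 each), against 1.97 ± 0.62 in lean KO and 1.91 ± 0.62 in lean WT (SD, n = 3 each). That of Mcl1 to Bcl2l11 was 4.15 ± 0.66 in transferred KO and 4.80 ± 0.73 in transferred WT (SD, n = 2 each), against 2.80 ± 0.64 in lean KO and 2.10 ± 0.50 in lean WT (SD, n = 3 each). Its lowest transfer value was 3.68 and its highest lean value 3.20. The log2 ratio of Bcl2l1 to Bax had its highest group mean, 2.32, in transferred WT and its lowest, 1.45, in 16-week WT. These ratios describe RNA and were not tested.

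Pathway genes around the family were also compared between transfer and lean diet, where 7.35% of all genes rose and 8.81% fell, so that 1 called gene in a list of about 10 is near the background. Of 20 regulators 5 rose: Il2ra (1548 ± 336 CPM in transfer, SD, n = 4, and 669 ± 186 CPM on lean diet, SD, n = 6; log2 1.17 ± 0.13), Nfkb1 (0.75 ± 0.11), the interleukin 7 receptor gene Il7r (0.67 ± 0.12), the common gamma chain gene Il2rg (0.34 ± 0.08) and Rel (0.57 ± 0.17). Il2rb (-0.86 ± 0.16) and Stat5b (-0.65 ± 0.17) fell. Of 10 death receptor genes Ripk3 rose (0.41 ± 0.14), and Tnfrsf1a (-1.79 ± 0.28) and Fasl (-3.26 ± 0.69) fell. Of 6 inhibitors of apoptosis Birc3, an NF-kB target, rose (0.41 ± 0.11) and Birc5, a cell division gene, fell (-1.47 ± 0.42). The p53 targets Cdkn1a (1.07 ± 0.14) and Zmat3 (0.68 ± 0.19) rose, 2 of 10, as did Vdac3 (0.38 ± 0.13), 1 of 14 caspase and apoptosome genes, and Bcl2a1d (0.56 ± 0.18), 1 of 10 other family genes. Of the 18 immediate early genes 11 rose, with a median of 0.57, and their sum was 38624 to 46335 CPM in transferred KO and 39716 to 48630.0 CPM in transferred WT. Adipose Treg markers summed to 9842 to 10669 CPM in transferred KO and 9723 to 10125 CPM in transferred WT. Both sums were above every lean value given above, and the transfer libraries were also deeper, and the part of these in the members' changes was not tested.

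Genes most like 3 of the members over the 18 diet libraries were ranked by Pearson correlation of log2(CPM + 2). Bcl2l1 was most like Ltb4r1 (0.93), Plec (0.91), Ahnak (0.91), the adipose Treg marker Klrg1 (0.90) and Lmna (0.90). Pmaip1 was most like Mid1 (0.88), the immediate early phosphatase gene Dusp1 (0.84), Msmo1 (0.84), Uba6 (0.82) and Polg2 (0.81). Bax was most like Map2k5 (0.91), Foxn3 (0.90), Fnta (0.90), Mkrn1 (0.89) and Stard7 (0.89). Among the members, Bax and Bbc3 were the closest pair (r = 0.69, 0.52 within groups), and Mcl1 and Bid the most opposed (-0.75, -0.56 within groups). Bcl2l1 and Mcl1 had r = 0.58, but -0.15 within groups. These are descriptions over 18 libraries that share groups and depth.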

How the data were processed

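The authors deposited a table of raw read counts per gene for the 22 libraries, made with STAR 2.7.3a and featureCounts on mm10, per the submitters' processing notes. Not given in the sources used here were the annotation, strand setting and featureCounts version. From these counts, CPM were computed after TMM scaling, and comparisons were tested with edgeR 4.0.16 (quasi-likelihood test, limma 3.58.1, R 4.3.3) after filterByExpr with a minimum count of 10. Diet libraries were fitted together over 11698 genes, transfer KO against WT over 11715, and transfer against lean over 12523 with all 22 libraries. The p-values were adjusted by Benjamini-Hochberg over all genes of a fit, with a threshold of 0.05. The code was tested on simulated data. Alternatives were DESeq2 1.42.0, RLE scaling, library totals, no filter, a minimum count of 30, only the groups compared, the replicate number as a block, the Bcl2a1 copies summed, and each library left out. Symbols matched GENCODE M21 for 53009 of 55011 genes (96.4%). All 10 members were named, with members past the threshold given in every library, every called gene of the pathway lists in KO against WT, and up to 4 a list and direction by p elsewhere; Myc and Rel, next in their lists, were named after their values were seen. The 5 most alike genes were named for the 3 members with the smallest p among diet groups, with predicted genes left out. The members, pathway lists and marker lists were chosen with earlier results of these data known. Results of the caspase and apoptosome list at 16 weeks against lean diet are not reported here.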

Additional observations from a re-analysis of the deposited data

How the results depend on the processing

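Refits covered only the 50 results for a member in a comparison with an unadjusted p under 0.05 (edgeR). Of 1379 refits, 1310 kept their direction and side of the threshold, 55 lost and 14 gained a call, and 0 reversed. Results chosen for a small p seldom reverse, and some refits left out a library of neither group compared. These totals therefore do not measure how firm the members' results are. Calls among the 10 members moved with single settings. With library totals, the calls were 0 (1 before) for 16 against 4 weeks in the average and in KO, and 1 (2 before) among the 6 diet groups; with only the groups compared, 16 against 4 weeks in the average also gave 0. With no filter the calls were 1 (0 before, Pmaip1 each time) for KO against WT on lean diet and in the average, and for 4 weeks against lean diet in the average and in KO, and 3 (0 before) for transfer against lean diet in KO; DESeq2 and the groups compared alone each gave 1 there. Leaving out each library in turn gave 0 to 1 calls for 16 against 4 weeks in the average and 0 to 2 in KO, 1 to 2 for 16 weeks against lean diet in the average and 1 to 4 in KO, 0 to 2 among the 6 diet groups, and, for transfer against lean diet, 0 to 2 in KO and 1 to 4 in WT. Replicate numbers did not pair the diet libraries: over 45 same-number pairs the deviations correlated at -0.15 to 0.21, with 3 over 0.1. In the transfer groups 2 libraries a group are too few to settle whether the numbers pair them. With the replicate number as a block, 6 members (7 before) differed among the 8 groups and 3 (4 before) passed for transfer against lean diet in WT, and no other count of members changed. Counts over all genes were higher with no filter and mostly with DESeq2: KO against WT gave 135 and 24 genes on lean diet (5 by the reported test), 428 and 47 at 16 weeks (5), 273 and 38 in the average (21), and 102 and 61 after transfer (20, and 40 with the block), and at 4 weeks 75 with no filter (8, and 5 with the block). For 16 weeks against lean diet they were 1085 with no filter in KO (696) and 178 and 82 in WT (10, and 1 with only the groups compared), for 4 weeks against lean diet in the average 161 and 47 (0), for 16 against 4 weeks in the average 536 and 391 (248), for transfer in KO 698 and 640 (419) and among the 6 diet groups 1343 and 761 (335). Library totals moved the median log2 fold change of all genes by 0.12 for 16 weeks in KO, 0.10 for its interaction with genotype, -0.11 for transfer in the average and -0.13 for transfer in WT. The cause of these shifts was not tested. Depth limits Bak1, Bbc3 and Bcl2l11 most, and 2 transfer libraries a genotype limit what that comparison can show.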
